A study of Mus musculus with 6 samples.

Results

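H3K4 methyltransferases and demethylases are the enzymes that write and erase methylation on lysine 4 of histone H3, and trimethylation of this residue (H3K4me3) marks the promoters of most active genes. The set comprised 10 genes chosen by function, and was read against all 21951 protein-coding genes of the GENCODE annotation. For each gene, every H3K4me3 peak that reached within 2500 bp of an annotated transcription start site (TSS) was taken as a promoter peak, and a gene with 1 or more of them was called marked. The mark was measured by ChIP-seq with an H3K4me3 antibody in 2 mouse lymphoid progenitor lines. Scid.adh.2C2 is a T cell progenitor line, a subclone whose parent line arose from a thymic tumor of a Prkdc scid mouse, and 230-238 is a B cell progenitor line transformed by the Abelson virus. Each line was a single tumor-derived or transformed line in culture without further treatment, and contributed 2 H3K4me3 libraries and 1 input library. The authors combined the libraries of a line into 1 peak list, so the values below carry no error, the read depth is unknown, and no difference between the lines could be tested.

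The H3K4 methyltransferases of mammals work in large complexes related to yeast COMPASS. SETD1A and SETD1B, held at CpG-rich promoters with the help of CXXC1, lay down most trimethylation at active promoters. KMT2A and KMT2B carry a CXXC domain that binds unmethylated CpG dinucleotides, and KMT2A is known in lymphoid and myeloid leukemia as the target of MLL translocations. KMT2C and KMT2D mainly monomethylate H3K4 at enhancers, WDR5 is a subunit that all these complexes share, and KDM5A and KDM5B remove the methyl groups from di- and trimethylated H3K4.

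The lists held 15513 peaks for Scid.adh.2C2 and 19604 for 230-238. The lines carried the marks of their labels. All 10 T cell markers examined were marked in Scid.adh.2C2 and 4 of them in 230-238, whereas 10 of 10 B cell markers were marked in 230-238 and 1 in Scid.adh.2C2, which was Vpreb1. Of 6 myeloid markers, Cebpe was marked in both lines and the other 5 in neither. The fold enrichment over background, as given by the peak caller, ran on a different scale in the 2 lists. Among marked protein-coding genes the median of the highest promoter fold was 27.1 in Scid.adh.2C2 and 21.7 in 230-238. Each member was therefore placed among the marked protein-coding genes of its own line, and its rank is the percentage of these genes with a lower value.

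The writers, their shared subunit WDR5 and the eraser KDM5A all had marked promoters in both progenitor lines. A total of 9 of the 10 genes were marked in Scid.adh.2C2 and the same 9 in 230-238, and Kdm5b was marked in neither, so that 0 members were marked in a single line. Among all protein-coding genes 45.5% were marked in Scid.adh.2C2, 48.2% in 230-238, 42.2% in both lines, 48.6% in neither, 3.28% in Scid.adh.2C2 only and 5.96% in 230-238 only. Genes with many annotated TSSs have more windows that a peak can reach, and the 10 genes had between 3 and 8. Among protein-coding genes with 3 or more TSSs, 60.9% were marked in Scid.adh.2C2, 64.3% in 230-238, 57.2% in both and 32.0% in neither. Every one of the 9 marked genes had an IDR score of 1000 in both lines for its highest peak. This is the top of the scale on which IDR scores the agreement of replicates. Nearly all marked genes of the other lists below had this score too, with few exceptions such as Paxip1 in Scid.adh.2C2 (597). The share of all marked genes with this score was not computed. The median of the highest fold over the 9 genes was 32.9 in Scid.adh.2C2 and 25.7 in 230-238, and 8 and 6 of them lay above the median of all marked genes. Their highest peaks had a median width of 2902 bp and 2873 bp, beside 2091 bp and 2278 bp over all marked genes.

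**Figure D1:**
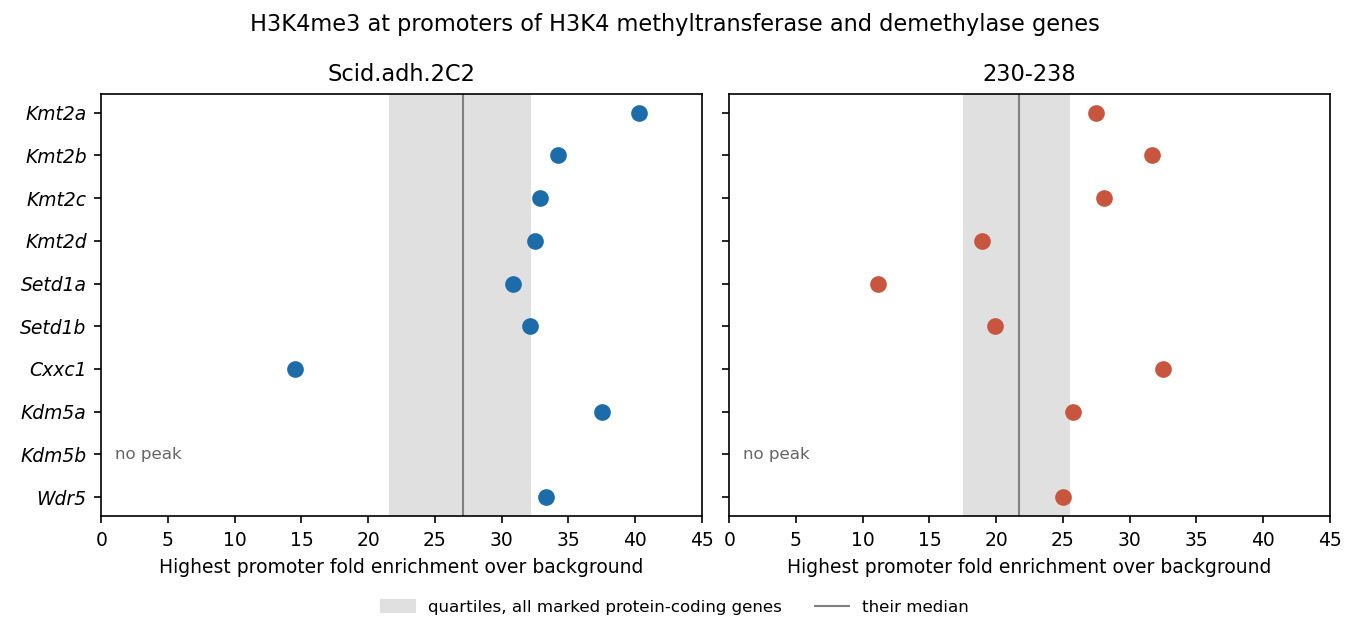
Highest promoter fold enrichment of H3K4me3 over background (horizontal axis, from 0) for each of the 10 genes in Scid.adh.2C2 (left) and 230-238 (right). Each point is 1 value from a combined list, with no error; the grey band and line are the quartiles and median of all marked protein-coding genes. Kdm5b had no peak, Cxxc1 was low only in Scid.adh.2C2 (14.5) and Setd1a only in 230-238 (11.1).

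Of the KMT2 family, Kmt2a (ENSMUSG00000002028, chromosome 9 of GRCm38 from 44803355 to 44881296, minus strand) had the highest peak of all members in Scid.adh.2C2. Its fold was 40.3 in Scid.adh.2C2, which ranked above 96.8% of the marked genes, and 27.5 in 230-238, above 85.1%. This promoter was split. In Scid.adh.2C2 a peak from 44879151 to 44881355 covered the TSS and reached 2145 bp into the gene, and a second peak of 25.7-fold from 44881495 to 44883669 lay upstream. They left 139 bp between them that started 60 bp before the most upstream TSS. In 230-238 the same pair of peaks was 27.5-fold and 24.4-fold enriched, with 93 bp between them that started 163 bp before the TSS, and a small additional peak of 341 bp (6.72-fold) lay inside the gene.

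Kmt2c (ENSMUSG00000038056, chromosome 5 from 25271798 to 25498783, minus strand) was split in the same place. The interval between its peaks began 16 bp before the TSS in Scid.adh.2C2 and held 177 bp, and in 230-238 it began 41 bp before the TSS and held 98 bp. The order of the flanks differed between the lines. The upstream peak was the higher in Scid.adh.2C2, at 32.9-fold against 23.4-fold for the peak over the TSS, whereas in 230-238 the peak over the TSS was the higher, at 28.1-fold against 22.6-fold. The highest fold ranked above 78.4% of the marked genes in Scid.adh.2C2 and above 87.8% in 230-238. All promoter peaks of Kmt2a, also those over the TSS, lay in windows of an antisense transcript (AC061963.1) as well. All those of Kmt2c lay in windows of a long noncoding RNA (4831440E17Rik). ChIP-seq does not tell which strand such a peak belongs to. Promoters with peaks less than 200 bp apart made up 15.3% of the marked genes in Scid.adh.2C2 and 19.8% in 230-238, so that 2 of 9 members was near the general share. Counting Kmt2b, described next, 2 members in Scid.adh.2C2 and 3 in 230-238 had 2 or more promoter peaks, beside 25.8% and 33.2% of the marked genes.

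The promoter sequences show where the called peaks were interrupted. They are the 250 bases before the RefSeq TSS, from the RefSeq promoter table of GRCm38.p6, written 5′ to 3′ on the strand of the gene, and capitals mark the bases between the flanking peaks in Scid.adh.2C2. The Kmt2a sequence is chr9:44881290-44881539 and the Kmt2c sequence is chr5:25498784-25499033, both on the minus strand.
Kmt2a: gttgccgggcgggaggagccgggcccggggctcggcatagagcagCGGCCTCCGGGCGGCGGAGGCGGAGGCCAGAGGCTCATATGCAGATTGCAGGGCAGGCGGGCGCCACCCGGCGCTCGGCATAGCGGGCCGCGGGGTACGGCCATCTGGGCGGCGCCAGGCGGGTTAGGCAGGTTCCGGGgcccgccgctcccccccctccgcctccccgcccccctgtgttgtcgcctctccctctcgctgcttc
Kmt2c: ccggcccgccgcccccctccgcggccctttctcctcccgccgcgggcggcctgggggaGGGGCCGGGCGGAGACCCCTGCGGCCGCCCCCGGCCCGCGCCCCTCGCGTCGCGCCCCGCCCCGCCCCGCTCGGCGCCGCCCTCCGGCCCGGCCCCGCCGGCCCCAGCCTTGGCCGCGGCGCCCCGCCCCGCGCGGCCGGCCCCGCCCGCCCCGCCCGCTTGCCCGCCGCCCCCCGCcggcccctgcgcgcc

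The uncovered stretch of Kmt2c was made almost of G and C alone, at 93.2% of its 177 bases, beside 87.7% of the other bases of the window. That of Kmt2a held 76.3% over 139 bases, slightly less than the 77.5% of the other bases. With the shorter intervals of 230-238 the uncovered bases held more than the others at both genes, at 94.9% against 89.5% for Kmt2c and 80.2% against 75.1% for Kmt2a. The Kmt2a value covered only the 81 bases of its 93 bp interval that lay inside the window. The whole 250 bases held 91.6% G and C at Kmt2c, more than 99.997% of the 32841 promoters in the table, and 76.8% at Kmt2a, more than 97.2% of them. Across the table, promoters that overlapped an interval of less than 200 bp between peaks had a median G and C content of 62.8% in Scid.adh.2C2 (868 promoters) and 64.0% in 230-238 (1243 promoters). Those over a peak without such an interval had 60.8% and 60.4%. The quartiles overlapped widely, at 56.8% and 68.8% with an interval and 54.0% and 67.6% without one in Scid.adh.2C2, and at 58.4% and 69.8% against 53.6% and 67.2% in 230-238. The part of base composition in these gaps between called peaks was not tested, and weaker enrichment inside them was not analysed here.

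Kmt2b (ENSMUSG00000006307, chromosome 7 from 30568858 to 30588726, minus strand) had a peak centered on its TSS in both lines. It was 2902 bp wide in Scid.adh.2C2 and 2873 bp in 230-238, wider than 81.4% and 70.3% of the marked genes. In both lines it also lay in a window of the microRNA gene Mir3569. It reached from 30587247 to 30590148 in Scid.adh.2C2 and from 30587241 to 30590113 in 230-238, so that its edges differed by 6 bp and 35 bp. The fold was 34.2 in Scid.adh.2C2 and 31.7 in 230-238, with ranks of 83.5% and 96.9%. A second peak entered the promoter window of Kmt2b in 230-238 only. It was 4391 bp wide and 28.0-fold enriched, from 30590850 to 30595240, and also covered a promoter window of the neighboring gene Zbtb32, which encodes a zinc finger repressor of lymphocytes. Its near edge lay at -2124 bp from the Kmt2b TSS, and with a window of 1000 bp it no longer belonged to this gene. Because of it, the shared bases made up 98.8% of the Kmt2b promoter peaks in Scid.adh.2C2 and 39.5% in 230-238, the lowest share of the set.

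Kmt2d (ENSMUSG00000048154, chromosome 15 from 98831669 to 98871204, minus strand) had a wide single peak. It spanned 4411 bp in Scid.adh.2C2 and 5529 bp in 230-238, wider than 97.1% and 97.3% of the marked genes. The peak also lay in promoter windows of the long noncoding RNA gene 5730414N17Rik and of Gm49437, so its width cannot be assigned to Kmt2d alone. With peaks less than 1000 bp apart joined, Kmt2a (4519 bp) and Kmt2c (4352 bp) were about as wide in Scid.adh.2C2. In 230-238 the joined Kmt2b region (8000 bp) was wider, and those of Kmt2a (4971 bp) and Kmt2c (4389 bp) were narrower. The upstream edges of the peak in the 2 lines lay 11 bp apart, and the additional length in 230-238 was inside the gene, where the peak reached 3616 bp past the TSS instead of 2487 bp. The fold went the other way, with 32.5 in Scid.adh.2C2 (rank 77.0%) and 18.9 in 230-238 (rank 32.3%). A further peak of 33.5-fold and 24.7-fold at the other end of the gene lay in the promoter window of the adjacent Prkag1. With a promoter window of 5000 bp it became the highest peak of Kmt2d in 230-238, and a window of that size therefore no longer measured the Kmt2d promoter alone.

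Setd1b (ENSMUSG00000038384, chromosome 5 from 123142193 to 123168629, plus strand) lay in one of the broadest H3K4me3 domains of both lines. The peak measured 9229 bp in Scid.adh.2C2, from 123136114 to 123145342, and 9192 bp in 230-238, from 123135770 to 123144961. Only 3 of the 9980 marked genes in Scid.adh.2C2 and 17 of the 10570 in 230-238 had a wider highest peak. It reached 6079 bp and 6423 bp upstream of Setd1b, where the domain also covered promoter windows of 3 long noncoding RNA genes, AI480526, Gm38102 and 4932422M17Rik. The width cannot therefore be assigned to Setd1b alone. The lines shared 95.9% of the bases of the domain in Scid.adh.2C2 and 96.3% of those in 230-238. The fold was 32.2 in Scid.adh.2C2 (rank 75.2%) and 19.9 in 230-238 (rank 38.4%), whereas the −log10 q of the same peak ranked above 60.2% and 87.7% of the marked genes. Inside the gene, 6400 bp and 6359 bp from the nearest of its annotated TSSs and over 1 of its exons, both lines had a further peak of 25.0-fold and 19.4-fold, from 123149357 to 123151750 in Scid.adh.2C2 and from 123149316 to 123151271 in 230-238.

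**Figure D2:**
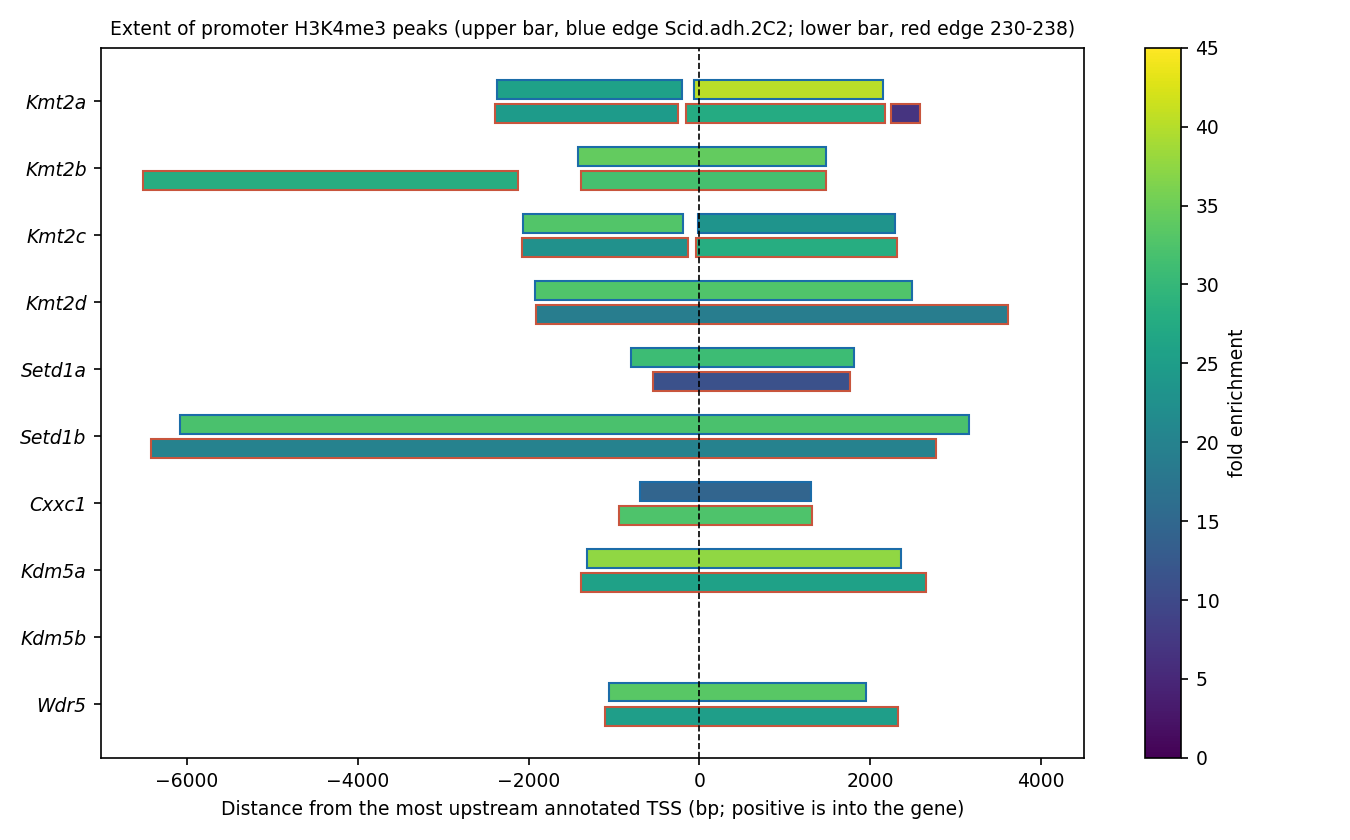
Extent of the promoter peaks of each gene in bp from its most upstream annotated TSS (dashed line), with positive values into the gene. The upper bar of a pair (blue edge) is Scid.adh.2C2 and the lower (red edge) 230-238, and the fill gives the fold enrichment of the peak. In 230-238 alone Kmt2b has an upstream peak of 4391 bp and Kmt2a a small peak of 341 bp inside the gene. The Kmt2d peak reaches farther into the gene in 230-238. In both lines the peaks of Kmt2a and Kmt2c are interrupted just before the TSS.

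The genes of SETD1A and its partner CXXC1 showed opposite orders between the lines. Setd1a (ENSMUSG00000042308, chromosome 7 from 127776670 to 127800122, plus strand) had a fold of 30.9 in Scid.adh.2C2 and of 11.1 in 230-238. Its rank was 69.2% in Scid.adh.2C2 and 5.0% in 230-238, where it was the lowest of the marked members. The place of the mark was kept, since the peak from 127776130 to 127778436 in 230-238 lay wholly within the peak from 127775869 to 127778480 in Scid.adh.2C2. Its width was 2612 bp and 2307 bp. The summit, however, was at 535 bp from the most upstream TSS in Scid.adh.2C2, inside the gene, and at -176 bp in 230-238, before it.

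Cxxc1 (ENSMUSG00000024560, chromosome 18 from 74216124 to 74221496, plus strand) showed the opposite order. The fold was 14.5 in Scid.adh.2C2, the lowest of the marked members there, and 32.5 in 230-238, the highest of the members there. Its rank was 7.29% and 97.7%. Again the position hardly differed, with summits 553 bp and 567 bp into the gene and a downstream edge that moved by 5 bp, and the widths were 2001 bp and 2261 bp.

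To set these folds against the general difference between the lists, the log2 ratio of the fold in 230-238 to that in Scid.adh.2C2 was taken for the 9261 protein-coding genes marked in both lines, and its median of -0.32 was subtracted. On this scale Cxxc1 stood at 1.48, that is 2.79 times higher in 230-238, and only 0.853% of the genes had a greater value. Setd1a stood at -1.16, that is 2.23 times higher in Scid.adh.2C2, and 0.993% of the genes had a lower value. Cxxc1 was the 1 member more than 2 times higher in 230-238, beside 3.3% of all genes marked in both lines, and Setd1a the 1 member more than 2 times lower, beside 1.98%. The remaining 7 genes lay between -0.46 (Kmt2d) and 0.21 (Kmt2b). With the −log10 q of the peak in place of its fold the direction of both genes was kept, at 0.96 for Cxxc1 and -0.72 for Setd1a, and neither passed the limit of 2 times (4.09% and 2.03% of all genes did). With 1 combined list per line, neither difference has a replicate check.

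**Figure D3:**
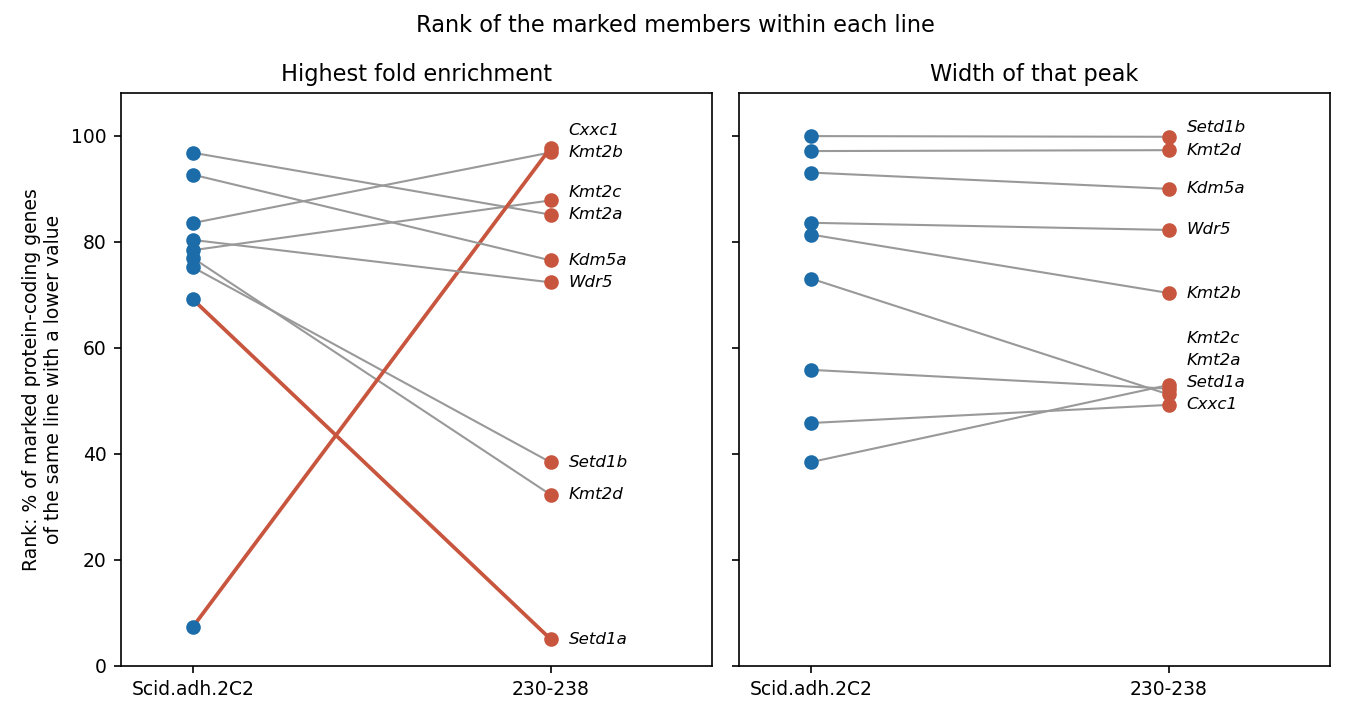
Rank of the 9 marked genes among the marked protein-coding genes of the same line, as the percentage with a lower highest fold (left) or a narrower highest peak (right). Lines join the 2 values of a gene, and the red ones mark rank differences of more than 50 points, which were those of Cxxc1 (7.29% to 97.7%) and Setd1a (69.2% to 5.0%). The ranks by width differ less than those by fold in all but Kmt2c. Its rank goes from 38.4% to 53.0% by width and from 78.4% to 87.8% by fold. By width, Setd1b, Kmt2d and Kdm5a are at the top in both lines.

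Wdr5 (ENSMUSG00000026917, chromosome 2 from 27515157 to 27536535, plus strand), which codes for the subunit common to all the complexes, was the member whose rank by fold moved least. Its fold was 33.4 in Scid.adh.2C2 (rank 80.4%) and 25.0 in 230-238 (rank 72.4%). The peak of 3002 bp in Scid.adh.2C2 was contained in that of 3423 bp in 230-238, and the summits lay 486 bp and 515 bp past the TSS.

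The demethylase genes were unlike each other. Kdm5a (ENSMUSG00000030180, chromosome 6 from 120364124 to 120444574, plus strand) had a fold of 37.6 in Scid.adh.2C2, above 92.7% of the marked genes, and of 25.7 in 230-238, above 76.5%. The peak was also wide, with 3671 bp and 4033 bp (ranks 93.1% and 90.0%), and it covered a promoter window of the protein-coding gene Ccdc77 as well. Kdm5b (ENSMUSG00000042207, chromosome 1 from 134560171 to 134635285, plus strand), in contrast, had no peak within 2500 bp of any of its 6 annotated TSSs and none inside the gene in either line. The nearest was found in Scid.adh.2C2 only, a peak of 854 bp and 8.08-fold from 134556226 to 134557079, whose near edge lay 3092 bp upstream of the gene. It counts as a promoter peak with a window of 5000 bp. An unmarked promoter means only that nothing there was listed after peak calling and IDR, and weaker enrichment was not analysed here.

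The sequence of the unmarked Kdm5b promoter and those of the marked promoters of Wdr5 and Kmt2d are given for comparison, as the 250 bases before the RefSeq TSS in GRCm38.p6, 5′ to 3′ on the strand of the gene, with each CG dinucleotide in capitals. They are chr1:134559928-134560177 on the plus strand for Kdm5b, chr2:27514897-27515146 on the plus strand for Wdr5 and chr15:98871206-98871455 on the minus strand for Kmt2d.
Kdm5b: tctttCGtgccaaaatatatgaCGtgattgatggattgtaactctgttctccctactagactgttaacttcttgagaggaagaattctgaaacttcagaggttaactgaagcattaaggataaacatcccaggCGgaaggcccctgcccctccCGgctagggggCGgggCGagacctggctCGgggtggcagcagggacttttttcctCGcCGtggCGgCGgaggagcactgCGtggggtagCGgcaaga
Wdr5: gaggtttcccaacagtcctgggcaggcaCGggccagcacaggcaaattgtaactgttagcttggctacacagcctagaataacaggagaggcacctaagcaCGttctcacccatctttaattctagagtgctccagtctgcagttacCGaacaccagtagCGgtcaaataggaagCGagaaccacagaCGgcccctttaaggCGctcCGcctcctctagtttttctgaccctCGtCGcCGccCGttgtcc
Kmt2d: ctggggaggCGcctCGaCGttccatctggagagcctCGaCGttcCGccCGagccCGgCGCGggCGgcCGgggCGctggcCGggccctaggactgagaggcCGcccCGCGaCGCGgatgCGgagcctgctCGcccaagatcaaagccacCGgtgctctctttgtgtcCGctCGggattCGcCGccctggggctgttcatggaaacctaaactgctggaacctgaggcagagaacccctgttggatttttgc

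In these windows Kdm5b held 13 CG dinucleotides, Wdr5 12 and Kmt2d 26. Kdm5b and Wdr5 also had the same G and C content of 54.4%. The RefSeq table held 6 of the 10 members, and Kmt2b, Setd1b, Cxxc1 and Kdm5a were not matched. The other matched members held 25 (Setd1a), 29 (Kmt2a) and 48 (Kmt2c). The Setd1a window, from 127777139 to 127777388, lay past the most upstream GENCODE TSS of the gene (127776670). It overlapped annotated exons of Setd1a by up to 209 bases, so its counts do not describe sequence before the first TSS. Promoters of the table with a peak in both lines had a median of 18 (quartiles 12 and 24, 9271 promoters), and those without a peak in either line a median of 3 (quartiles 1 and 6, 21278 promoters). A count of 13 or more was found in 12.3% of the promoters without a peak, and a count of 13 or fewer in 31.9% of those with a peak in both lines. The count of Kdm5b was thus below the median of the marked promoters, within their quartiles, and above the upper quartile of the unmarked ones. The part of CpG content in the missing peak was not tested. The GC box GGGCGG, searched on both strands, occurred once in Kdm5b, once in Wdr5, 4 times in Kmt2a, 4 times in Kmt2d, 12 times in Kmt2c and not in Setd1a. It was found in 32.7% of all promoters and in 62.7% of those with a peak in both lines. The TATA box TATAAA, the CCAAT box CCAAT, the ETS motif CCGGAAG, the E box CACGTG, the CRE TGACGTCA and the NRF1 core TGCGCA did not occur in these windows of the 6 members. They were found in 12.4%, 33.9%, 6.91%, 6.02%, 1.55% and 6.43% of all promoters. Among promoters with a peak in both lines, in the same order, the shares were 4.84%, 36.2%, 17.4%, 9.16%, 3.11% and 13.8%, and none of the searched motifs contains another.

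**Figure D4:**
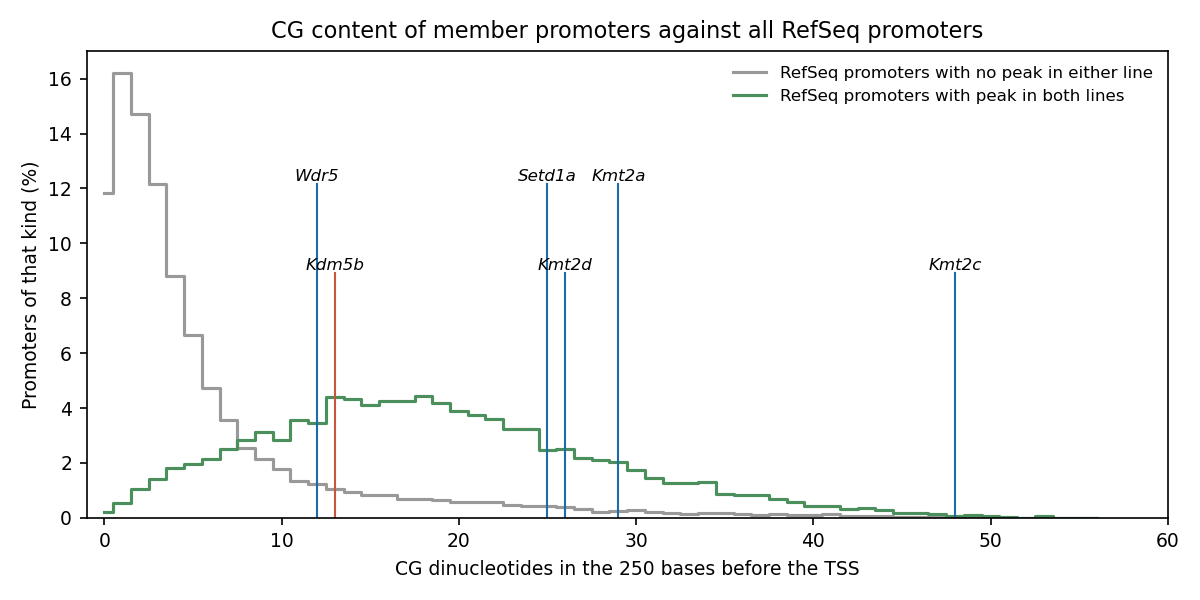
Number of CG dinucleotides in the 250 bases before the RefSeq TSS (horizontal axis) against the percentage of promoters, for promoters with a peak in both lines (green) and in neither (grey). Vertical lines give the 6 matched members, whose heights have no meaning. The unmarked Kdm5b (red, 13) lies beside the marked Wdr5 (blue, 12), within the quartiles of the green distribution (12 and 24) and above the upper quartile of the grey one (6).

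The position and extent of the peaks varied among the members. The highest peaks measured from 1868 bp (Kmt2c) to 9229 bp (Setd1b) in Scid.adh.2C2 and from 2261 bp (Cxxc1) to 9192 bp (Setd1b) in 230-238. The 1868 bp were 1 flank of the split Kmt2c promoter, whose peaks summed to 4175 bp in Scid.adh.2C2. In both lines the most upstream TSS lay inside a peak in 9 of 9 marked genes, beside 83.3% of marked genes in Scid.adh.2C2 and 80.4% in 230-238. Of the 50 annotated TSSs of the 9 genes, 22 lay inside a peak in each line, and the others, all downstream of the first, did not. The promoter peaks of a gene overlapped closely between the lines, with a median of 99.8% of the bases in Scid.adh.2C2 and 89.9% of those in 230-238. The highest peak was wider in 230-238 in 6 of the 9 genes, beside 68.3% of all genes marked in both lines. The largest ratios were 1.26 at Kmt2c, where different flanks were the highest in the lines, and 1.25 at Kmt2d, and the smallest was 0.883 at Setd1a. In the body of Kmt2a, 230-238 had a pair of weak peaks without a partner in Scid.adh.2C2, of 8.42-fold and 9.02-fold, from 44867068 to 44868882 and from 44869014 to 44870202, without overlap with an exon of the gene and at least 10664 bp from its annotated TSSs.

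Other genes of the H3K4 methylation machinery were marked almost without exception. For comparison, 42.2% of all protein-coding genes were marked in both lines, and 57.2% of those with 3 or more TSSs. Of 14 further subunits and partners of the COMPASS complexes, 13 were marked in both lines, with a median highest fold of 30.6 in Scid.adh.2C2 and 23.1 in 230-238. The exception was Men1, the tumor suppressor menin that tethers KMT2A and KMT2B, which was marked in neither. Paxip1, a partner of KMT2C and KMT2D, was the highest in Scid.adh.2C2 (41.7), and Bod1l, a partner of the SETD1 complexes, in 230-238 (29.7). The lowest were Ash2l, which codes for a core subunit of all the complexes, in Scid.adh.2C2 (18.9) and Psip1, a chromatin tether of KMT2A, in 230-238 (12.2). The IDR score of Paxip1 in Scid.adh.2C2 was 597. All 9 further H3K4 demethylases, methyltransferases and their partners were marked in both lines. Kmt2e, a relative of the KMT2 genes, was the highest in Scid.adh.2C2 (38.4), and Setd7, which codes for a monomethyltransferase, in 230-238 (30.0). The lowest were Kdm5d, a paralog of Kdm5a on the Y chromosome, in Scid.adh.2C2 (11.2) and Riox1 in 230-238 (15.1). Kdm5d was the only gene of these H3K4 lists besides Cxxc1 and Setd1a to pass the limit of 2 times, at 1.02 in favor of 230-238. Of the 16 genes of proteins that bind H3K4me3, 16 were marked in Scid.adh.2C2 and 15 in 230-238. Phf8, which codes for a demethylase with a PHD finger, was the highest in Scid.adh.2C2 (36.4), and Bptf, which codes for a subunit of the NURF remodeler, in 230-238 (31.7). The gene without a peak in 230-238 was Rag2, a subunit of the V(D)J recombinase whose PHD finger reads H3K4me3, and it was also the lowest in Scid.adh.2C2, with 8.20-fold over 645 bp and an IDR score of 967. The lowest in 230-238 was Ing4 (19.2).

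Neither the high share of marked promoters nor peaks wider than the general median were particular to the H3K4 enzymes. Of 28 genes listed with the Polycomb complexes, which act on other histone residues, 28 were marked in Scid.adh.2C2 and 27 in 230-238. Among all protein-coding genes these shares were 45.5% and 48.2%. Eed was unmarked in 230-238. The list included the demethylase gene Kdm6b, which codes for no Polycomb subunit. The medians over the list, 27.3-fold and 22.4-fold, were near those of all marked genes. Rbbp4 was the highest (41.5 and 31.2) and Phf1 the lowest (9.06 and 12.8). Of 9 genes that write or erase DNA methylation, 7 were marked in each line and 6 in both. Dnmt3b was marked in Scid.adh.2C2 only (25.6-fold), Tet2 in 230-238 only (13.6-fold) and Dnmt3l in neither. Dnmt1 was the highest in both lines (43.7 and 29.0) and Tet1 the lowest (16.9 and 6.28), and Tet1 was also more than 2 times lower in 230-238 after the median shift (-1.11 on the log2 scale). Median widths of the highest peaks in Scid.adh.2C2 and 230-238 were 2323.5 bp and 2531 bp for the Polycomb list. They were 2702 bp and 2698 bp for the DNA methylation genes, with median folds of 29.4 and 19.1. The further COMPASS genes had 2745 bp and 2583 bp. The further H3K4 enzymes had 2282 bp and 2831 bp (folds 30.9 and 22.2), and the genes of H3K4me3-binding proteins 2388 bp and 2771 bp (26.4 and 24.3). These lists differ in size and no test was made between them.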

How the data were processed

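Peak lists of H3K4me3 ChIP-seq from 2 lines were used, each made from 2 ChIP libraries and 1 input library grouped by the sample titles. The authors trimmed reads with Trim Galore 0.6.7, mapped them to mm10 (GRCm38) with Bowtie2 2.4.4, called peaks with MACS2 2.2.7.1 in narrow mode at a q-value of 0.05 against input, and kept the optimal set after IDR. The deposited columns are a fold ratio over background, a −log10 q, an IDR score and positions, and were used as given by the authors. The depth of the libraries is unknown, and intervals or tests could not be computed from 1 list per line.

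TSSs came from GENCODE M21 on GRCm38, and a promoter was marked when a peak overlapped the 2500 bp either side of a TSS by at least 1 bp. A gene was described by its peak with the greatest fold. All 10 members are named; of the other lists, genes marked in 1 line or neither and those with the highest and lowest fold. The members and lists were chosen with earlier results of these data known, and the comparison by −log10 q and without the median shift after the values were seen. Functions were tested on simulated data. Python 3.11.15, numpy 2.4.6, pandas 2.3.3 and matplotlib 3.10.9 were used.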

Additional observations from a re-analysis of the deposited data

How the results depend on the processing

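The number of marked members was 9 in each line under the alternatives tried, except that a window of 5000 bp gave 10 in Scid.adh.2C2, with the distant peak upstream of Kdm5b. That window moved the Scid.adh.2C2 medians over marked members to a fold of 33.1 and a width of 2684.5 bp. Joining peaks less than 1000 bp apart raised the median width to 3671 bp in Scid.adh.2C2 and 4389 bp in 230-238. With the −log10 q in place of the fold, 0 members were more than 2 times higher and 0 more than 2 times lower in 230-238. The medians were the same with a window of 1000 bp, peaks of at least 10-fold, the highest IDR score, lists cut to equal length, summits inside the window, the most upstream TSS, protein-coding transcripts and the peak with the greatest −log10 q. Among 468 values of single genes under an alternative, 25 moved. The direction of Cxxc1 and Setd1a held in each alternative, whereas 4 members under the limit of 2 times changed sign in the log2 ratio between the lines. With −log10 q, Setd1b went from -0.37 to 0.28 and Wdr5 from -0.10 to 0.06, and without the median shift Kmt2b went from 0.21 to -0.11 and Kmt2c from 0.09 to -0.23. No paired analysis was possible because the replicates of each line were combined into 1 list, and for the same reason no replicate could be left out. The unknown depth limits what can be said of an unmarked promoter such as Kdm5b.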
